A study of Arabidopsis thaliana with 8 samples.

Results

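The H3.1 and H4 histone families were measured in whole Arabidopsis thaliana seedlings of the Col-0 accession by 10 probe sets of the ATH1 array, which the annotation pairs with 13 genes, out of 22746 probe sets tested. The rule reads the annotation and no measured value, although both families were picked with earlier results of these data known. A probe set was taken when its platform annotation names several genes and includes AT1G09200, a gene of the H3.1 family, or AT1G07820, a gene of the H4 family. This gave 5 probe sets for H3.1 and 5 for H4. The annotation pairs each H3.1 probe set with the same 5 genes, AT1G09200, AT3G27360, AT5G10390, AT5G10400 and AT5G65360. It pairs each H4 probe set with the same 8 genes, AT1G07660, AT1G07820, AT2G28740 (HIS4), AT3G45930, AT3G46320, AT3G53730, AT5G59690 and AT5G59970. Values therefore describe families, and no probe set is assigned to 1 gene. AT5G10390 and AT5G10400 are neighbours in the RefSeq gene table of TAIR10.1, and the digit after AT in each locus name is the chromosome. The suffix _s_at, which the manufacturer gives to probe sets whose probes match several genes, stands on 3 of the H4 probe sets (247692_s_at, 252562_s_at and 261408_s_at) and on 0 of the H3.1 probe sets.

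The labels define a wildtype group and a group called E2Fa-Dpa, with 4 arrays each and 1 array per sample. Both groups were Col-0 plants grown on agar with Murashige and Skoog salts under long days, and whole seedlings were collected 6 days after germination, 8 days after sowing. E2Fa and DPa form a dimeric transcription factor, and the series title names E2F target genes as its subject. The labels give neither the alleles nor the promoter or line behind the E2Fa-Dpa plants. The annotation used here pairs 0 probe sets with either gene, so the labels were not checked against their transcripts. It names no gene for 8730 of the probe sets tested, so this does not show that the array lacks probe sets for E2Fa or DPa.

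Histones H3 and H4 form the tetramer at the core of the nucleosome, 1 pair of each. H3.1 is the replication-coupled form of H3, made mainly in S phase and laid down behind the replication fork by the chaperone complex CAF-1. H4 has no such split into forms in Arabidopsis, and its several genes encode the same protein. H3.3, which differs from H3.1 at a few residues, is made through the cell cycle and replaces H3 at transcribed genes. In plants, promoters of S-phase histone genes are known to carry histone-specific elements, and E2F binding sites are a known feature of DNA replication genes. Promoters of the H3.1 and H4 genes were not searched for either here.

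The signal is the deposited MAS5 intensity of a probe set, on a linear scale that the authors set to a common level on each array. Fold changes are differences of log2(signal + 16) between group means, E2Fa-Dpa minus wildtype, so those of dim probe sets are understated. Adjusted p-values come from limma over all 22746 probe sets by the Benjamini-Hochberg method, with a threshold of 0.05. Nothing in the labels says that samples of a group were grown apart, so the p-values reflect only how far these samples spread, and that spread may be technical. Signals of different probe sets are not compared as amounts of RNA, because probes differ in brightness. In whole seedlings, fewer cells making a transcript and less of it per cell cannot be told apart.

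The arrays fell into 2 sets that cross the groups. Signal of the poly-A control RNA dap, read from its control probe sets alone, was 79.9 to 116 on 4 arrays (replicates 3 and 4 of wildtype, replicates 1 and 4 of E2Fa-Dpa) and 2.11 to 3.48 on the other 4. The 2 arrays that share a group and a set form a close pair, with correlations over all probe sets of 0.974 to 0.994. The sets are named here as arrays with and without control RNA, and values are given within each.

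In E2Fa-Dpa seedlings 5 of 5 H3.1 probe sets rose, as did 4 of 5 H4 probe sets, against 4.36% of all probe sets tested. With the close pairs as a random block these counts were 3 and 1 (1.53% of all probe sets), and with each pair averaged to 1 value they were 0 and 0 by limma (0.00879% of all). The median log2 fold change was 1.72 for H3.1, with a range of 1.28 to 2.50, and 1.58 for H4, with a range of 1.26 to 1.82, against 0.00403 over all probe sets. In 9 of 10 members every E2Fa-Dpa signal lay above every wildtype signal, which held for 9.53% of all probe sets. A rise past the threshold of at least 1 on the log2 scale was found for 9 of 10 members and for 1.78% of all probe sets. When the array set entered as a block, 10 of 10 members rose, against 11.7% of all probe sets, and the highest adjusted p among them was 0.00288. All 10 members had signals above 32 on every array, so a filter at that mean signal removed none. The annotation gives all probe sets of a family the same genes, and their signals come from the same arrays. Counts of members are therefore not read as counts of independent observations.

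**Figure D1:**
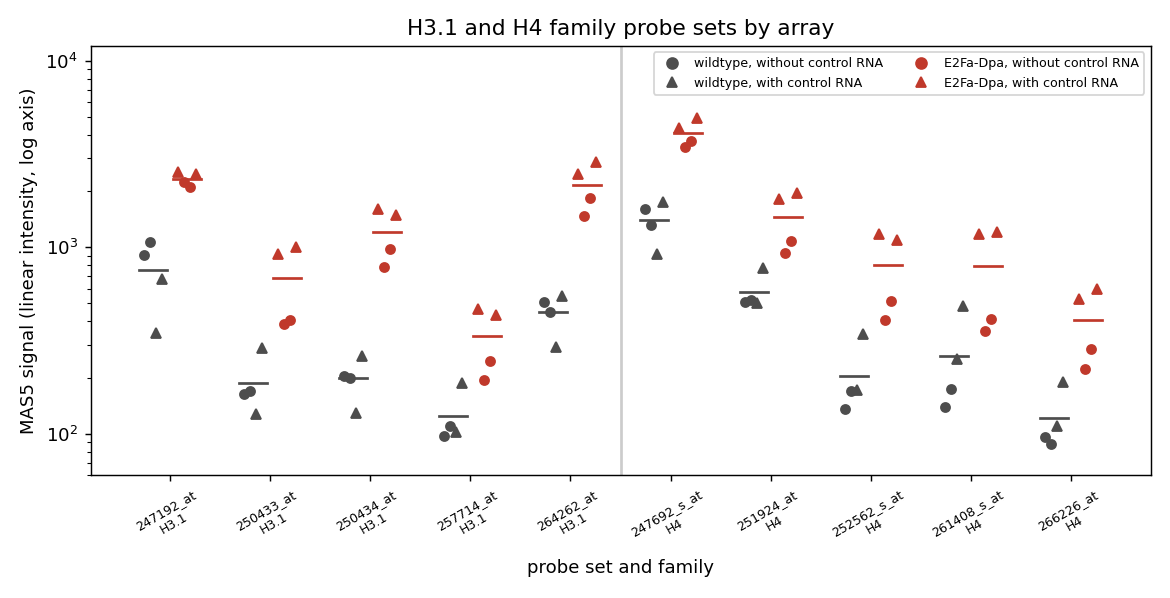
Signal of each of the 10 probe sets (x axis) on each array (y axis, linear intensity on a log axis), with 1 point per array, grey for wildtype and red for E2Fa-Dpa, circles for arrays without and triangles for arrays with control RNA, and a bar at each group mean. The groups are apart in every probe set except 261408_s_at, where wildtype replicate 4 at 481 lies above E2Fa-Dpa replicates 2 and 3.

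Among the H3.1 probe sets, 250434_at changed most. Its signal was 204, 199, 129 and 262 in wildtype replicates 1 to 4 and 1595, 788, 972.5 and 1491 in E2Fa-Dpa replicates 1 to 4. The lowest E2Fa-Dpa array thus stood well above the highest wildtype array, wildtype replicate 3 was the lowest array, and E2Fa-Dpa replicates 1 and 4 were the highest. The mean went from 198 ± 54.6 to 1212 ± 392.2 (SD, n = 4 each), a log2 fold change of 2.50 ± 0.264 (SE, limma adjusted p = 0.000791), or 5.64-fold. Of all probe sets tested, 28 had a larger fold change. Within the array sets the rise was 2.03 (without control RNA) and 2.96 (with it).

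The second H3.1 probe set by size of change, 264262_at, read 511, 448, 291 and 548 in wildtype and 2479, 1479, 1836 and 2869 in E2Fa-Dpa, in replicate order. The groups did not overlap, and wildtype replicate 3 was the lowest array. The mean went from 449.6 ± 113 to 2166 ± 625 (SD, n = 4 each), for a log2 fold change of 2.22 ± 0.251 (limma adjusted p = 0.00112). Within the array sets it was 1.75 without and 2.69 with control RNA.

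The brightest H3.1 probe set, 247192_at, read 911, 1065, 348 and 677 in wildtype and 2520.5, 2237, 2114 and 2459 in E2Fa-Dpa. The 4 E2Fa-Dpa arrays lay close together, while the wildtype arrays spread over a range in which wildtype replicate 3 was lowest. Its log2 fold change was 1.72 ± 0.298 (limma adjusted p = 0.00992), or 1.13 without and 2.32 with control RNA.

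The other 2 H3.1 probe sets had smaller or less certain rises. 250433_at read 164, 169, 127 and 289.7 in wildtype and 923, 388, 409 and 1002 in E2Fa-Dpa, with the 2 E2Fa-Dpa arrays that carry control RNA more than double the others. Its log2 fold change was 1.70 ± 0.352 (limma adjusted p = 0.0213). 257714_at, the dimmest of the family, read 97.1, 110.5, 102 and 188 in wildtype and 468, 193, 247 and 433 in E2Fa-Dpa, so that wildtype replicate 4 and E2Fa-Dpa replicate 2 were almost level. Its log2 fold change was 1.28 ± 0.298 (limma adjusted p = 0.0327).

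In the H4 family the largest rise was that of 252562_s_at, which read 135, 169.7, 171.5 and 344 in wildtype and 1184, 405, 513 and 1093 in E2Fa-Dpa. The E2Fa-Dpa arrays split by array set, and the groups did not overlap. Its log2 fold change was 1.82 ± 0.383 (limma adjusted p = 0.0224), or 3.54-fold, with 1.49 without and 2.15 with control RNA.

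The brightest H4 probe set, 247692_s_at, read 1597, 1314, 914 and 1744 in wildtype and 4377, 3426.5, 3711 and 4940.3 in E2Fa-Dpa. All E2Fa-Dpa arrays lay above all wildtype arrays, and the array sets overlapped within wildtype. The mean went from 1392 ± 365 to 4114 ± 680 (SD, n = 4 each), a log2 fold change of 1.58 ± 0.217 (limma adjusted p = 0.00323). The highest signal of any probe set on an array was 5481 to 7682, and flags for saturated spots are not given in the sources used here.

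266226_at read 96.6, 87.9, 109.6 and 189 in wildtype and 530.5, 222, 286 and 595 in E2Fa-Dpa, a log2 fold change of 1.58 ± 0.329 (limma adjusted p = 0.0217). 251924_at read 509, 522, 499.96 and 771 in wildtype and 1823, 930.4, 1086 and 1949 in E2Fa-Dpa, a log2 fold change of 1.26 ± 0.259 (limma adjusted p = 0.0206). In both, the groups were apart and E2Fa-Dpa replicates 1 and 4 were the highest arrays.

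The remaining H4 probe set, 261408_s_at, did not pass the test. It read 139, 173, 252 and 481 in wildtype and 1185, 354, 409.8 and 1212 in E2Fa-Dpa, so the groups overlapped. The log2 fold change was 1.47 ± 0.483, with a 95% interval of 0.39 to 2.56 and an adjusted p of 0.102 by limma. This is the member in which the array sets differed most, by 1.35 on the log2 scale with the group in the model (limma adjusted p = 0.00263). Within each array set its 2 E2Fa-Dpa arrays lay above its 2 wildtype arrays, and it rose once the array set was a block (limma adjusted p = 0.00144).

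**Figure D2:**
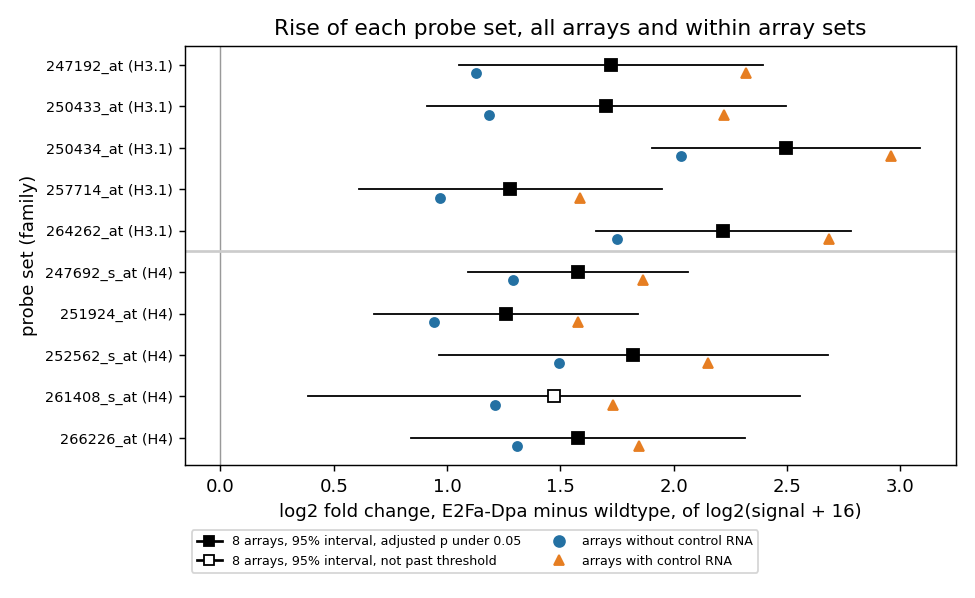
Log2 fold change of each probe set (x axis, E2Fa-Dpa minus wildtype, with its 95% interval over 8 arrays) as squares, filled where the adjusted p was under 0.05, with the change within the arrays without (circles) and with (triangles) control RNA. Every interval lies above 0, and in each row the triangle lies to the right of the circle.

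The rise was larger in the arrays with control RNA for 10 of 10 members. The share of all probe sets that changed in that direction is not given here, so the count is not read as particular to the members. For no member did the difference pass the threshold when tested as an interaction of group and array set over all probe sets by limma, where the lowest adjusted p was 0.289 and 4 of 10 had an unadjusted p under 0.05. Of all probe sets, 0.0835% passed that test and 11.6% had an unadjusted p under 0.05. The median rise of the H3.1 family was 1.18 without and 2.32 with control RNA, and that of the H4 family 1.29 and 1.85.

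Calls of single members rested on few arrays. The rises of 247192_at, 250434_at, 264262_at and 247692_s_at were called whichever array was left out (highest adjusted p = 0.0382 by limma). When any of 4 arrays was left out (replicates 1 and 2 of wildtype, 1 and 4 of E2Fa-Dpa), 3 of 5 H3.1 and 1 of 5 H4 probe sets passed the threshold. Calls also became fewer over all 22746 probe sets, where 599, 637, 500 and 476 rose in these fits, in that order. With all 8 arrays 992 rose. With each pair averaged, 5 H3.1 and 4 H4 probe sets rose at an unadjusted p under 0.05, as did 4.92% of all probe sets.

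Summed over its 5 probe sets, the H3.1 signal was 1887, 1992, 997 and 1965 in wildtype replicates 1 to 4 and 7985, 5085, 5577 and 8254 in E2Fa-Dpa replicates 1 to 4. Wildtype replicate 3 was far below the other wildtype arrays, and the 2 E2Fa-Dpa arrays with control RNA were the highest. The mean was 1710.1 ± 477 in wildtype and 6725 ± 1626 in E2Fa-Dpa (SD, n = 4 each), 3.93-fold higher. Within the array sets the mean went from 1939 to 5331 without and from 1481 to 8119 with control RNA. The summed H4 signal was 2477, 2267, 1948 and 3529 in wildtype and 9098, 5339, 6006 and 9789 in E2Fa-Dpa, with means of 2555 ± 685 and 7558 ± 2212, 2.96-fold higher. Its mean went from 2372 to 5672 without and from 2738 to 9444 with control RNA. The groups were apart in both sums. As a part of the signal of all probe sets, H3.1 took 0.0545% ± 0.0156 (wildtype) and 0.219% ± 0.0489 (E2Fa-Dpa), and H4 took 0.0812% ± 0.0216 and 0.246% ± 0.0674. Without control RNA the H3.1 part went from 0.0623% to 0.177% and the H4 part from 0.0762% to 0.189%. With control RNA they went from 0.0467% to 0.261% and from 0.0863% to 0.303%. These sums and shares are descriptions of brightness over families chosen with earlier results known, and carry no test.

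The H3.1 part of the summed H3.1 and H4 signal was 43.2%, 46.8%, 33.9% and 35.8% in wildtype replicates 1 to 4 and 46.7%, 48.8%, 48.2% and 45.7% in E2Fa-Dpa replicates 1 to 4. The groups overlapped, since wildtype replicate 2 lay above E2Fa-Dpa replicates 1 and 4. The 2 wildtype arrays with control RNA were the lowest of all, and the E2Fa-Dpa arrays spanned a narrow range.

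On the log2 scale, the balance was taken as the mean of log2(signal + 16) over the H3.1 probe sets minus that over the H4 probe sets. It was -0.01, -0.01, -0.69 and -0.58 in wildtype and -0.09, 0.18, 0.13 and -0.14 in E2Fa-Dpa, in replicate order. The mean went from -0.32 ± 0.366 to 0.02 ± 0.161 (SD, n = 4 each), a change of 0.34 that is under the spread of the wildtype arrays, and the groups overlapped. Within the arrays without control RNA it changed by 0.16 and within those with it by 0.52, and in each set both E2Fa-Dpa arrays lay above both wildtype arrays. Between the 2 sets, wildtype itself differed by more than that, with means of -0.01 without and -0.64 with control RNA. The change was 0.22 without wildtype replicate 3 and 0.86 when medians over the probe sets replaced means.

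**Figure D3:**
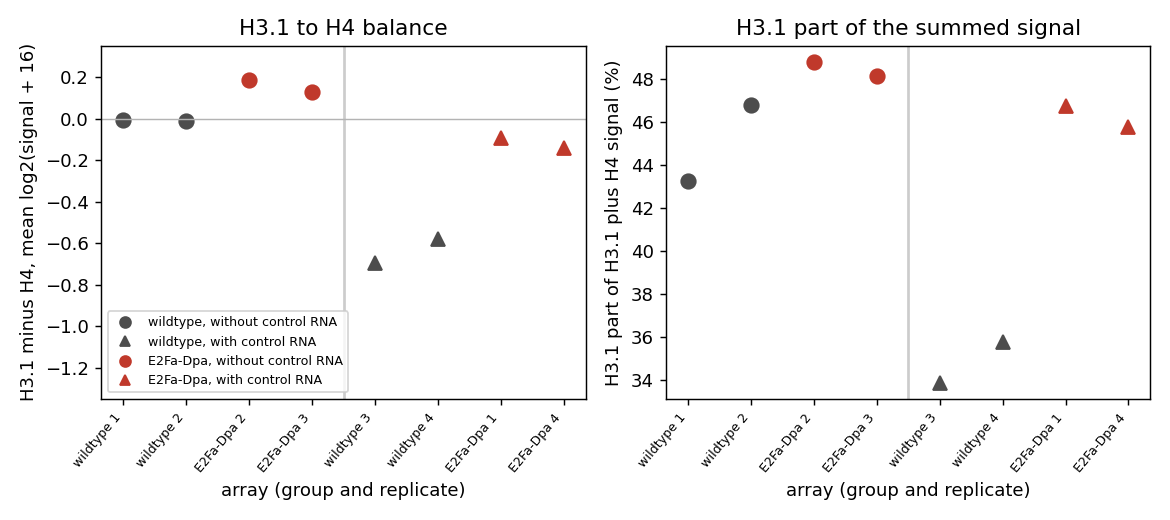
H3.1 to H4 balance (left, difference of mean log2(signal + 16)) and H3.1 part of the summed H3.1 and H4 signal (right, percent; the axis does not start at 0) on each array, grouped by array set, with grey for wildtype and red for E2Fa-Dpa. In each set the E2Fa-Dpa arrays lie above the wildtype arrays, and wildtype replicates 3 and 4 are the lowest, at 33.9% and 35.8%.

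The share of each probe set in the signal of its family shows which probe sets changed more than their family. 250434_at made up 10.8%, 10.0%, 12.9% and 13.3% of the H3.1 signal in wildtype and 19.97%, 15.5%, 17.4% and 18.1% in E2Fa-Dpa, with the groups apart. Its mean share was 11.8% ± 1.61 in wildtype and 17.7% ± 1.85 in E2Fa-Dpa. The share of 264262_at was 26.7% ± 2.92 and 31.95% ± 2.44, with 1 wildtype array, replicate 3 at 29.2%, above the lowest E2Fa-Dpa array at 29.1%. The shares of 247192_at (42.8% ± 9.60 and 35.8% ± 6.47), 250433_at (11.2% ± 3.103 and 9.66% ± 2.54) and 257714_at (7.62% ± 2.65 and 4.83% ± 0.907) were lower in E2Fa-Dpa, with groups that overlapped.

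In the H4 family 251924_at had the one share whose groups were apart. It made up 20.5%, 23.0%, 25.7% and 21.9% of the H4 signal in wildtype and 20.03%, 17.4%, 18.1% and 19.9% in E2Fa-Dpa. The share of 247692_s_at was 54.7% ± 8.05 (wildtype) and 56.1% ± 8.03 (E2Fa-Dpa), and those of 252562_s_at, 261408_s_at and 266226_at changed by 2.20, -0.25 and 0.52 percentage points, all with overlapping groups. Several shares moved with the array set more than with the group. That of 247692_s_at was 61.2% in wildtype and 62.99% in E2Fa-Dpa without control RNA, and 48.2% and 49.3% with it. That of 247192_at was 50.9% and 40.9% without, and 34.7% and 30.7% with control RNA.

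With the group in the model, the array set itself passed the threshold for 5 of 10 members, 257714_at, 251924_at, 252562_s_at, 261408_s_at and 266226_at, each by 0.58 to 1.35 higher with control RNA on the log2 scale. Over all probe sets, 9.73% passed in that direction. The term did not pass for the other 5, at 0.72 for 250433_at, 0.34 for 250434_at, 0.22 for 264262_at, 0.09 for 247692_s_at and -0.40 for 247192_at (lowest limma adjusted p = 0.0747). Among the deviations of the arrays from their group means, those of 247192_at were the least like the rest. Over 8 arrays, with both group means removed, it correlated with the 9 other members at -0.13 to 0.66, and these 9, from both families, correlated with one another at 0.47 or more. The lowest correlation of any pair, -0.13, was that of 247192_at with 261408_s_at, and the highest, 0.99, was that of 257714_at, an H3.1 probe set, with 252562_s_at, an H4 probe set. The points share 8 arrays and 2 array sets, and these correlations are descriptions. Wildtype replicate 3 was the lowest wildtype array in 6 of 10 members and wildtype replicate 4 the highest in 9 of 10.

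**Figure D4:**
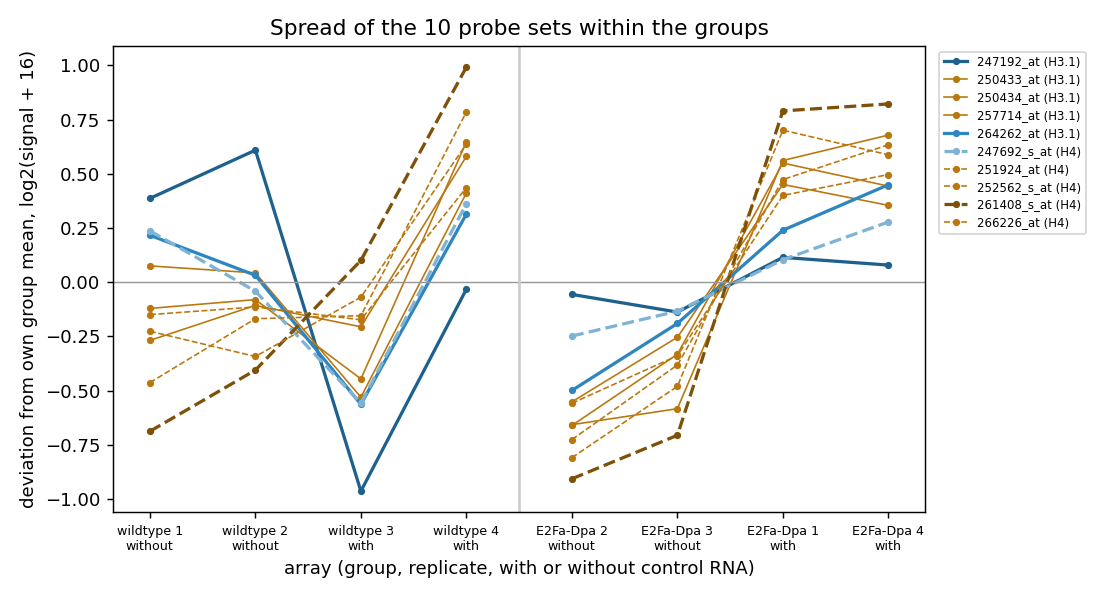
Deviation of each array from the mean of its own group in log2(signal + 16) (y axis) for the 10 probe sets, with lines joining the values of 1 probe set, solid for H3.1 and dashed for H4. Blue marks the 3 probe sets with the lowest array set term. At wildtype replicate 3 247192_at lies at -0.96, and 261408_s_at (dark brown) spans -0.91 to 0.99.

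The other histone classes were read from genes listed for this purpose. Of 3 probe sets that the annotation pairs with the H3.3 genes AT4G40030, AT4G40040 and AT5G10980, 2 rose. 252849_at averaged 1685 ± 170.3 in wildtype and 2775 ± 341 in E2Fa-Dpa (SD, n = 4 each), with a log2 fold change of 0.71 ± 0.139 (limma adjusted p = 0.0169), and 250397_at averaged 1211 ± 34.8 and 1945 ± 238, with a log2 fold change of 0.67 ± 0.125 (limma adjusted p = 0.0137). 252824_at had a log2 fold change of 0.30 (limma adjusted p = 0.158). The mean log2 signal of the H3.1 family minus that of the H3.3 family was -2.46 ± 0.431 in wildtype and -1.14 ± 0.321 in E2Fa-Dpa, a change of 1.32, and the groups were apart (-3.07 to -2.07 and -1.47 to -0.82). It went from -2.35 to -1.41 without and from -2.57 to -0.86 with control RNA. For H4 minus H3.3 the change was 0.98, from -2.14 ± 0.437 to -1.16 ± 0.479, and the groups overlapped. It went from -2.34 to -1.57 without and from -1.93 to -0.75 with control RNA, and within each array set the groups were apart.

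Of the other H3 variants, HTR12, the centromeric H3, rose from 23.2 ± 4.04 to 59.0 ± 22.7 (log2 fold change 0.89 ± 0.216, limma adjusted p = 0.0386). Probe sets of AT1G13370, AT1G75600, AT5G12910 and MGH3, an H3 form known from pollen, had mean signals of at most 6.77 in either group, and none passed the test.

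H2B is the partner of H2A in the outer part of the nucleosome. Of 9 measured H2B genes 4 rose by limma, against 4.36% of all probe sets, with a median log2 fold change of 1.007. An unadjusted p under 0.05 was found for 8 of them, and the share of all probe sets at that level is not given here. The 3 with the smallest p were AT5G02570 (1.28), AT2G37470 (1.21) and HTB2 (1.81). Of 3 linker H1 genes, AT2G30620 and AT1G06760 rose by 0.79 and 0.96, and HIS1-3, a linker histone known from drought, had 1.11 (limma adjusted p = 0.12). Its signals were 195 to 196 in the E2Fa-Dpa arrays with control RNA and 397 to 471 in those without, the opposite order to the H4 members. Of 13 listed H2A genes 0 had a named probe set.

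Chaperones that carry H3 and H4 were measured for 3 of 15 listed genes, and 3 rose. ASF1B and SGA2 (ASF1A), which hand H3 and H4 dimers to assembly factors, rose by 1.47 and 0.88, and AT4G37210, a plant NASP that binds H3, by 0.62 (limma adjusted p = 0.0138, 0.0137 and 0.021). ASF1B read 48.3, 48.8, 87.2 and 87.7 in wildtype and 309, 151, 152 and 272 in E2Fa-Dpa, so it too was higher in the arrays with control RNA. CAF-1 subunits had no named probe set in the annotation used here.

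**Figure D5:**
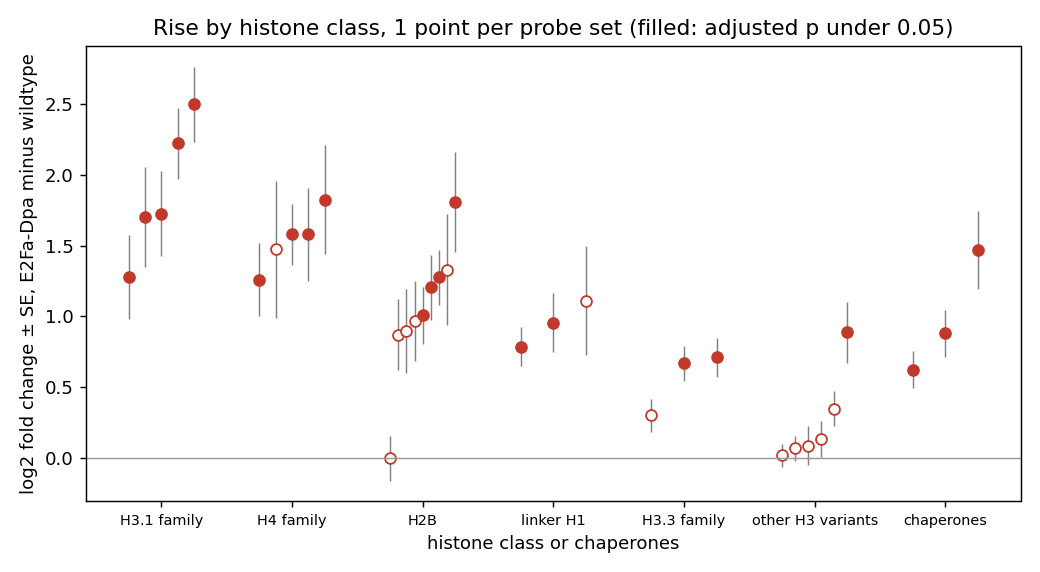
Log2 fold change with its SE (y axis, E2Fa-Dpa minus wildtype) of each probe set by histone class and for the chaperones, filled where the adjusted p was under 0.05. H3.1 lies between 1.28 and 2.50, H4 between 1.26 and 1.82, and the H3.3 probe sets between 0.30 and 0.71. H2B spans -1.2e-05 to 1.81 and the chaperones 0.62 to 1.47, so both overlap the H3.1 and H4 ranges. Linker H1 lies between 0.79 and 1.11.

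The patterns most like the families were sought among 6750 probe sets that name 1 gene and have a mean signal of at least 32, by Pearson correlation over the 8 arrays with the family mean, as a description. For H3.1 the closest were NRPB9B, a form of a small subunit of RNA polymerase II (0.996), AT3G54750 (0.994), AT3G63390 (0.992), AT4G33870 (0.992) and AT5G01870 (0.990). For H4 they were AT4G38150 (0.997), AT2G45520 (0.995), HTB2, an H2B gene (0.994), AT3G48490 (0.990) and AT1G77540 (0.989). NRPB9B went from 47.0 ± 12.7 to 126 ± 30.9 and HTB2 from 140 ± 45 to 571 ± 286 (SD, n = 4 each). With the group means removed, HTB2 correlated with the H4 mean at 0.976 and NRPB9B with the H3.1 mean at 0.987. All 8 arrays and both group differences enter the first measure. The genes were picked by that measure on these same arrays, so the values with group means removed are no separate support. Differences between the array sets also enter them.

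Markers of organs and cell states moved beside these results as follows. Of 3 measured shoot genes 1 fell, PRK, all 3 were lower at an unadjusted p under 0.05, and 2 fell when array sets were blocked. The summed signal of the 3 was 8507 to 9866 in wildtype and 6269 to 7589 in E2Fa-Dpa. Of 4 root genes 2 fell, AT5G17820 and PYK10, also with that block and at an unadjusted p under 0.05, with summed signals of 4007 to 5054 and 2728 to 3124. Of the Aurora kinases of mitosis, AUR1, AUR2 and AUR3, 0 passed by limma and 0 had an unadjusted p under 0.05, with summed signals of 161 to 235 and 158 to 182. Of 3 genes of the stomatal lineage none passed, with SPCH at an unadjusted p of 0.0137 and summed signals of 47.2 to 67.8 and 72.8 to 97.97, and the meristem gene CLV3 stayed at 7.52 or less on every array. Both shoot and root transcripts were thus present, as the label of whole plants says. Over all 22746 probe sets 669 fell, and 2223 fell with the array sets blocked. The share of all probe sets at an unadjusted p under 0.05 is not given here. The part of these marker shifts in the histone values was not tested.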

How the data were processed

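Total RNA of 8 whole-seedling samples was hybridised to ATH1 arrays, 4 per group. The authors deposited 1 intensity per probe set and array, made with MAS5 per the submitters' processing notes, which give no version. Precision is limited by how many arrays there are. The 64 control probe sets were left out and 22746 were tested, of which 13513 name 1 gene, 503 several and 8730 none in the annotation. Genes were matched through gene numbers to RefSeq (TAIR10.1), for names only.

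Intensities were used as log2(signal + 16). limma 3.58.1 (R 4.3.3) estimated the contrast (lmFit, eBayes with a trend, no covariate), with Benjamini-Hochberg adjustment across all genes and probe sets tested. It was tested on simulated data with independent noise on each array. That simulation held no array sets or close pairs, so it does not cover their effect on the calls. Array sets were split at a mean dap signal of 30. Alternatives were other pseudocounts, scalings, filters, blocks, and each array left out. The members, lists and alternatives were chosen with earlier results of these data known. All members are named, and of each list the 3 probe sets with the smallest p, together with others named to complete a count after their values were seen. Likeness named the 5 closest genes per family. The interaction and the trimmed balance were added after the data were seen. Sequences were not used here, so planned promoter searches were not run.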

Additional observations from a re-analysis of the deposited data

Results flagged for a closer look

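Among 52 groups of 4 arrays examined, 4 held an array far from the other 3 by Dixon's rule, where chance gives about 1 in 20. Wildtype replicate 4 stood high in 257714_at, at 188, and in 251924_at, at 771. Wildtype replicate 3 stood low in the summed H3.1 signal, at 997, and in the H3.1 part of all signal, at 0.0312%, which are nearly the same quantity. Without wildtype replicate 3, 4 H3.1 and 4 H4 probe sets rose, and without wildtype replicate 4, 5 and 4. Over all 22746 probe sets, 933 and 880 rose in these fits.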

How the results depend on the processing

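With 8 arrays, n limits what the test can call. The counts of 5 H3.1 and 4 H4 probe sets risen were the same under both other pseudocounts, the filter on low signal, median centring, quantile scaling, cyclic loess and eBayes without a trend, and 5 and 5 when the array set was a block. With the close pairs as a random block they were 3 and 1, with pairs averaged 0 and 0 (5 and 4 at an unadjusted p under 0.05, limma), and with an array left out 3 to 5 and 1 to 4. The median H3.1 change was 1.18 and 2.32 within the array sets. The change in balance was 0.86 with medians and 0.027 without 250434_at and 264262_at, the H3.1 members with the largest rises, whose removal lowers it by construction. No member's change turned negative under any alternative run, and the change of share of 247692_s_at and 261408_s_at took both signs. The 992 probe sets risen in all were 2653 with a block for the array set, 549 with the replicate block, 348 with pairs as a random block, 2 with pairs averaged and 476 to 934 with an array left out. The 669 fallen were 2223, 305, 106, 0 (1002 at an unadjusted p under 0.05) and 198 to 763, and 1080 with median centring. Correlations of same-numbered deviations were -0.52, 0.44, -0.36 and 0.53 in replicate order. They were positive where both arrays shared an array set and negative where they did not. They therefore cannot show whether replicate numbers pair the samples. The replicate block left the members' counts at 5 and 4. The causes were not tested.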
